A study of Homo sapiens with 10 samples.

Results

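The genes described here are 34 genes of glucose uptake, glycolysis, lactate formation, glycogen metabolism, the pentose phosphate pathway and gluconeogenesis. They were taken by gene symbol from a list of 34 names, and each was found once among the 26485 genes listed in the count tables. RNA was sequenced from SW480, a cell line from a human colorectal adenocarcinoma, after flow sorting on the surface receptor ROBO1. The ROBO1-positive cells (ROBO1pos, labelled SW480-CBC) were compared with the ROBO1-negative cells (ROBO1neg, labelled SW480-RSC), with 5 libraries in each group. Both groups carry the genotype label WT, and no agent other than the culture medium is named for either. The labels do not say that the replicates were separate cultures, so a p-value here reflects the spread among the deposited libraries, and this spread may be technical. Because each library is a bulk sample, fewer cells that express a gene and less of its RNA per cell cannot be told apart.

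In glycolysis, glucose enters the cell through GLUT transporters, is phosphorylated by hexokinase and is split into 3-carbon sugars that are oxidised to pyruvate, which lactate dehydrogenase converts to lactate. Glucose 6-phosphate can instead be stored as glycogen, or enter the pentose phosphate pathway, whose oxidative arm makes NADPH and whose non-oxidative arm exchanges sugars with glycolysis. Most steps have several isozymes encoded by separate genes, and colorectal tumours are known for high glucose uptake and lactate output.

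Both glucose transporters of the set were lower in ROBO1pos, SLC2A3 by 14.4-fold and SLC2A1 by 2.66-fold, while hexokinase 2 (HK2) was 3.56-fold higher. From phosphoglucose isomerase (GPI) to lactate dehydrogenase, most enzymes of the main glycolytic line were higher in ROBO1pos, with GPI, ENO1, GAPDH and TPI1 furthest up among the abundant ones. The pentose phosphate genes divided: PGD of the oxidative arm was 2.45-fold higher, and TALDO1 and TKT of the non-oxidative arm were 1.75-fold and 1.36-fold lower. The gluconeogenic gene FBP1 was 19.8-fold lower, at a low level in both groups.

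All 34 genes passed the expression filter, and all 34 were called different by edgeR's quasi-likelihood test at an adjusted p under 0.05, 17 higher and 17 lower in ROBO1pos. This is to be read against a background in which 82.0% of the 14932 tested genes were called, 41.6% higher and 40.4% lower in ROBO1pos. The median log2 fold change (ROBO1pos over ROBO1neg) was 0.02 over the 34 genes and 0.02 over all tested genes. For 30 of the 34 genes every ROBO1pos library lay on 1 side of every ROBO1neg library, as it did for 71.9% of all tested genes and 75.5% of those averaging at least 20 counts-per-million (CPM). CPM are counts scaled to the library's total on tested genes, adjusted by edgeR's TMM factor. The genes whose libraries overlapped were PFKM, ALDOC, ENO2 and PCK2. Of all tested genes, 13.5% were called and at least 2-fold higher and 16.8% at least 2-fold lower. Of the 34 genes, 3 were at least 2-fold higher (HK2, PGD and GPI) and 3 at least 2-fold lower (FBP1, SLC2A3 and SLC2A1), while 22 differed by less than 1.5-fold. When edgeR tested against a fold of 1.5 in place of no difference, 11 of the 34 genes (6 higher and 5 lower) and 6236 of the 14932 tested genes were called. Abundance bears on such counts: 32 of the 34 genes averaged at least 20 CPM, and 84.1% of the 8552 tested genes at that level were called. The median size of the log2 fold change was 0.51 over the 34 genes and 0.45 over the genes of at least 20 CPM.

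**Figure D1:**
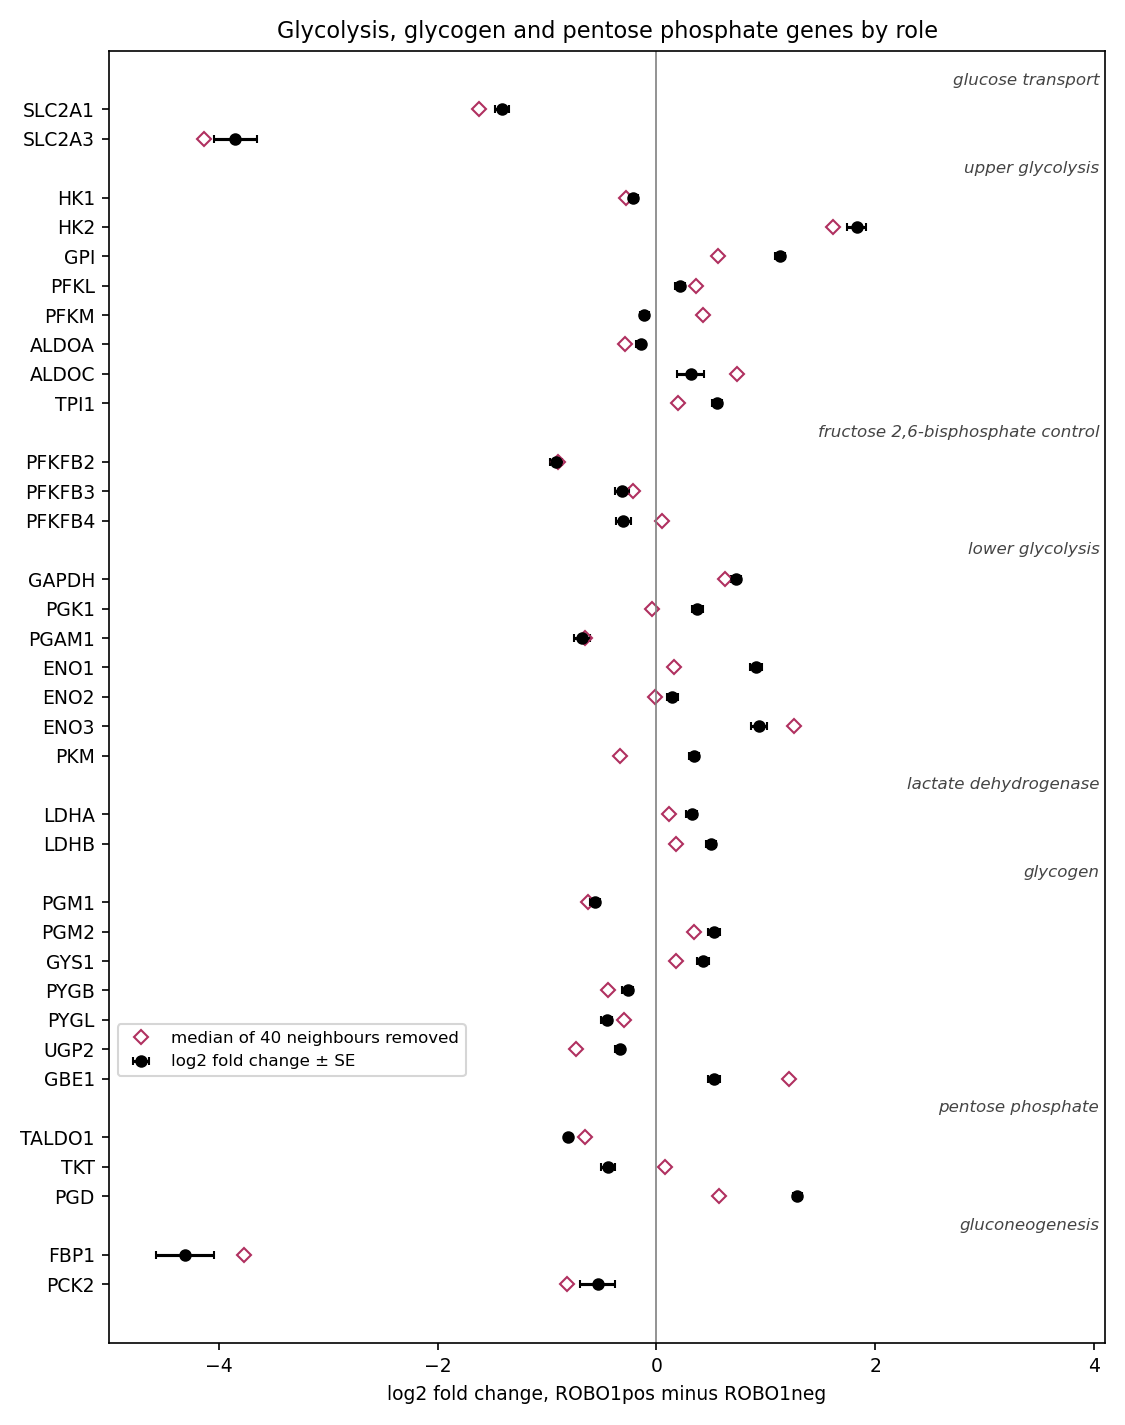
Log2 fold change of the 34 genes, ROBO1pos over ROBO1neg, grouped by role, with bars for the standard error (5 libraries per group, edgeR). Positive values are higher in ROBO1pos; glucose transport and gluconeogenesis lie to the negative side, with FBP1 at -4.31 and SLC2A3 at -3.85, and HK2 is the furthest to the positive side at 1.83.

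The set's RNA is dominated by a few genes. Together the 34 genes took 1.91% ± 0.0878 of the reads on genes in ROBO1pos and 1.68% ± 0.0619 in ROBO1neg (SD, n = 5 each, as for every ± value here). The libraries ran from 1.78% to 2.02% in ROBO1pos and from 1.61% to 1.78% in ROBO1neg. GAPDH alone took 0.591% in ROBO1pos and 0.352% in ROBO1neg. Scaled to transcript length, GAPDH was the most abundant of the set in both groups, at 3132 CPM per kb in ROBO1pos and 1888 CPM per kb in ROBO1neg.

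Library totals on genes ranged from 23228686 to 29539100, so 1 CPM rested on 23.2 to 29.5 counts. The sort receptor ROBO1 stood at 429.5 ± 26.7 CPM in ROBO1pos and 7.25 ± 1.47 CPM in ROBO1neg (SD, n = 5 each), and its log2 fold change was 5.88. Summed markers of colorectal epithelium ran from 5782 to 7042 CPM in ROBO1pos and from 7981 to 10495 CPM in ROBO1neg, with KRT20 at 0 in both groups and CEACAM5 at 0 in ROBO1pos. Of the 10 tested epithelial markers, 4 were higher and 4 lower in ROBO1pos, with log2 fold changes of 5.72 for CDH17, 4.18 for VIL1 and 1.17 for EPCAM on the higher side and of -0.82 for KRT19, -0.81 for KRT18 and -0.79 for KRT8 on the lower. Summed markers of leukocytes, endothelium and fibroblasts ran from 13.7 to 18.3 CPM in ROBO1pos and from 19.7 to 30.7 CPM in ROBO1neg. FCGR3A and COL3A1 were at 0 in both groups, PTPRC, MS4A1 and DCN at 0 in ROBO1neg. Of the 7 tested markers in that list, 3 were higher and 3 lower, and the fibroblast markers did not share a direction. COL1A1 was lower (4.87 CPM in ROBO1pos against 14.3 CPM in ROBO1neg), as were PDGFRB and VWF (log2 fold changes -1.35 and -2.82), while LUM (3.73 CPM in ROBO1pos against 0.0309 CPM in ROBO1neg), COL1A2 (1.97 CPM in ROBO1pos against 0.353 CPM in ROBO1neg) and LYZ (log2 fold change 0.42) were higher; all of these but COL1A1 were named after their values were seen. The call of LYZ was lost with DESeq2 (adjusted p = 0.053), with the replicate number as a block (0.055), and without replicate 4 of ROBO1pos or replicate 3, 4 or 5 of ROBO1neg (between 0.053 and 0.104). DCN, too low to be tested, had 36 counts over the ROBO1pos libraries and 0 over the ROBO1neg libraries. The part of these marker differences in the results below was not tested. Multiply aligned reads made up 24.6% of the listed reads in the ROBO1pos files and 21.2% in the ROBO1neg files. Genes with many processed copies in the genome are touched by this, since reads shared with a copy can be set aside: GENCODE release 29 names 62 pseudogenes for GAPDH, 13 for PGAM1, 6 for LDHA, 5 for PKM and 4 each for TPI1 and ENO1.

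Promoter sequences bear on the glycolytic genes because HIF and MYC are factors known to act on this pathway. HIF binds motifs with the core ACGTG or GCGTG, and MYC binds the E-box CACGTG. Windows of 250 bases before the transcription start that RefSeq (GRCh38.p14) gives were matched for 32 of the 34 genes, and SLC2A3 and PFKFB2 had no entry. RefSeq's start is often downstream of the outermost start in GENCODE release 29, from which the gene positions here are taken: 19 of the 32 windows lie wholly inside the GENCODE gene, 12 lie across its edge and 1 lies outside it. The windows are thus promoters of the RefSeq start alone, and other starts of the same genes were not searched. ACGTG was searched on both strands, and GCGTG was not counted. A window given as without a match may thus hold GCGTG, as those of ENO1 and FBP1 do. CACGTG is its own reverse complement and holds ACGTG on both strands. ACGTG was present in 12 of the 32 promoters (37.5%), against 23.1% of 10743 tested genes with a promoter and 18.7% of all 27305 promoters of the same length. It was present in 10 of the 17 genes higher in ROBO1pos (58.8%) and in 2 of the 15 matched genes lower in ROBO1pos (13.3%). The higher genes without a match were ENO1, ENO3, GYS1, LDHB, PFKL, PKM and TPI1, and the lower genes with a match were ALDOA and UGP2. CACGTG was present in 4 of the 32 promoters (12.5%), against 8.77% of tested genes with a promoter, and all 4 were of genes higher in ROBO1pos. For neither motif were the shares over all tested genes split by direction. The split by direction within the set thus has no matching background, and a link of motif to direction was not tested. These counts describe letters in a window and say nothing of binding, and the median GC content was 70.2% in the 32 promoters and 65.2% in those of tested genes. The promoters of HK2 (chr2:74833877-74834126, + strand), PGD (chr1:10398814-10399063, + strand), LDHA (chr11:18394313-18394562, + strand) and SLC2A1 (chr1:42958869-42959118, - strand) are shown 5′ to 3′, with PGD and SLC2A1 inside the GENCODE gene and HK2 and LDHA across its edge, the first 3 as genes higher in ROBO1pos with a match and the last as a gene lower in ROBO1pos with none. Capitals mark each ACGTG or its reverse complement CACGT.
HK2: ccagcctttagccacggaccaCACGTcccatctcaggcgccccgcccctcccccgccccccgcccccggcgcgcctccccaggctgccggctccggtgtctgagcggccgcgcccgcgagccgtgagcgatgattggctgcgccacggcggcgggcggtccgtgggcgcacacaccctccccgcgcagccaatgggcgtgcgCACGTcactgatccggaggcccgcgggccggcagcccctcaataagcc
PGD: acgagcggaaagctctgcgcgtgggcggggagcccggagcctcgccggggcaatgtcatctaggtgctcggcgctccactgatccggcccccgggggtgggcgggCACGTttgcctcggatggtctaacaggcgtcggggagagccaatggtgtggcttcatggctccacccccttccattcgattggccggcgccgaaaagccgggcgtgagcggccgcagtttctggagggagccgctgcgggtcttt
LDHA: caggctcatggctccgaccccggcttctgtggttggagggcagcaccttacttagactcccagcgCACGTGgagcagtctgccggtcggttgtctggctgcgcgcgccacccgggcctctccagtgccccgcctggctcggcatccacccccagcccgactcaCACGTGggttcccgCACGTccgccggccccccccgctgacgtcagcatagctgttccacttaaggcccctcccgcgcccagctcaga
SLC2A1: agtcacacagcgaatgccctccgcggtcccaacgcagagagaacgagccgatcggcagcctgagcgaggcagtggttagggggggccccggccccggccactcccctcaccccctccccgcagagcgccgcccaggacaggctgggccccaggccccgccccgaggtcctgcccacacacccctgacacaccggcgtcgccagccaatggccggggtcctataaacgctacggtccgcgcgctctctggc
HK2 has a pair of separate matches, PGD has 1, LDHA has 2 CACGTG words and 1 further core, and SLC2A1 has 0.

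Both glucose transport genes were lower in ROBO1pos. SLC2A1 (GLUT1, the widespread basal transporter; chromosome 1 from 42925375 to 42959176, minus strand, GRCh38 as are all gene positions here) had 571, 579.7, 571, 620.3 and 696 CPM in the ROBO1pos libraries, against 1758, 1641, 1576, 1506 and 1597 CPM in the ROBO1neg libraries. The highest ROBO1pos library lay well below the lowest ROBO1neg library. The mean was 608 ± 53.1 CPM in ROBO1pos and 1616 ± 93.3 CPM in ROBO1neg (SD, n = 5 each). The log2 fold change was -1.41 (SE 0.06, edgeR adjusted p = 4.6e-11). SLC2A3 (GLUT3, a transporter of high glucose affinity; chromosome 12 from 7919230 to 7936275, minus strand) had 164, 148, 133, 131 and 279 CPM in ROBO1pos, against 2764, 2772, 2276, 2068 and 2428 CPM in ROBO1neg. All ROBO1pos libraries were far below all ROBO1neg libraries, and replicate 5 of ROBO1pos stood above the other 4 of its group. The means were 171 ± 61.6 CPM in ROBO1pos and 2462 ± 308 CPM in ROBO1neg. The log2 fold change was -3.85 (SE 0.20, edgeR adjusted p = 2.8e-10), and -4.10 without that replicate.

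The order of the transporters turned over between the groups. Per kb of the principal transcript, SLC2A1 stood above SLC2A3 in ROBO1pos (166 ± 14.5 against 43.6 ± 15.7 CPM per kb), and SLC2A3 stood above SLC2A1 in ROBO1neg (629 ± 78.6 against 440.2 ± 25.4 CPM per kb). With the length of all exons in place of the principal transcript the order was the same, 129 against 27.7 CPM per kb in ROBO1pos and 342 against 399.7 CPM per kb in ROBO1neg. The ratio of SLC2A1 counts to SLC2A3 counts within a library ran from 2.50 to 4.73 in ROBO1pos and from 0.592 to 0.728 in ROBO1neg. The log2 ratio was 2.49 larger in ROBO1pos (two-sided exact permutation test, p = 0.00794, the smallest that 5 libraries against 5 can give, adjusted p = 0.0119 over 9 isozyme pairs).

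The hexokinases, which trap glucose in the cell as glucose 6-phosphate, went in opposite directions. HK2, the inducible form often high in tumours (chromosome 2 from 74833981 to 74893359, plus strand), had 136, 166, 155, 175 and 196 CPM in ROBO1pos, against 44.4, 48.0, 44.0, 43.9 and 52.5 CPM in ROBO1neg. The groups were far apart, with means of 166 ± 22.4 CPM in ROBO1pos and 46.6 ± 3.71 CPM in ROBO1neg and a log2 fold change of 1.83 (SE 0.09, edgeR adjusted p = 1.4e-10). HK1, the widespread form, was 1.16-fold lower at 114 ± 4.69 CPM in ROBO1pos and 131 ± 5.02 CPM in ROBO1neg (log2 fold change -0.21). Per kb of the principal transcript HK1 and HK2 stood at 31.5 and 28.7 CPM per kb in ROBO1pos, and at 36.4 and 8.07 CPM per kb in ROBO1neg. With all exons the ROBO1pos order was the other way, 18.0 for HK1 and 27.3 CPM per kb for HK2, so which is higher in ROBO1pos depends on the transcript length assumed. The ratio of HK2 counts to HK1 counts ran from 1.16 to 1.82 in ROBO1pos and from 0.326 to 0.387 in ROBO1neg, with a log2 difference of 2.03 (exact permutation test, adjusted p = 0.0119).

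The remaining enzymes of upper glycolysis were GPI, the phosphofructokinases, the aldolases and TPI1. GPI, which turns glucose 6-phosphate into fructose 6-phosphate (chromosome 19 from 34359480 to 34402413, plus strand), had 588, 697, 656, 687 and 699 CPM in ROBO1pos, against 305, 300.3, 299, 305 and 312 CPM in ROBO1neg. Every ROBO1pos library was above every ROBO1neg library, and the log2 fold change was 1.13 (SE 0.05, edgeR adjusted p = 4.3e-11). The phosphofructokinase genes, which encode the committed step, differed little. PFKL, the liver-type subunit, was at 149.5 ± 10.7 CPM in ROBO1pos and 129 ± 2.17 CPM in ROBO1neg (log2 fold change 0.22). PFKM, the muscle-type subunit, was at 137 ± 3.46 CPM in ROBO1pos and 148 ± 7.21 CPM in ROBO1neg, with overlapping libraries (log2 fold change -0.11, edgeR adjusted p = 0.022). The PFKM call was lost with library size as the only scaling (adjusted p = 0.054) and without replicate 4 of ROBO1neg (adjusted p = 0.051). PFKM shares 628 exonic bases, 8.6% of its own, with SENP1 on the opposite strand. As the strand setting of the counting is not stated, reads of that overlap may not be separated. Without TMM scaling, SENP1 averaged 58.8 CPM and PFKM 142.7 CPM over all libraries. The log2 ratio of PFKL to PFKM counts differed by 0.32 (exact permutation test, adjusted p = 0.0119). The platelet-type subunit PFKP, taken here from the list of other pathway genes for its place in the step and outside the rule for named genes, was lower at 59.6 ± 1.48 CPM in ROBO1pos and 81.4 ± 2.28 CPM in ROBO1neg (log2 fold change -0.45).

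The aldolases split fructose 1,6-bisphosphate. ALDOA, the main form, was 1.10-fold lower, with 687 ± 33.2 CPM in ROBO1pos and 758 ± 13.3 CPM in ROBO1neg (log2 fold change -0.14, edgeR adjusted p = 0.0045). ALDOC, known as the brain form, was at 8.07 ± 1.41 CPM in ROBO1pos and 6.49 ± 0.624 CPM in ROBO1neg with overlapping libraries (log2 fold change 0.31, edgeR adjusted p = 0.029). The ALDOC call was lost when replicate 1, 2 or 3 of ROBO1pos or replicate 1 or 4 of ROBO1neg was left out, with adjusted p between 0.064 and 0.088. TPI1, which interconverts the 3-carbon sugars, was 1.47-fold higher at 949 ± 42.5 CPM in ROBO1pos and 645 ± 30.3 CPM in ROBO1neg, with no overlap (log2 fold change 0.56).

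The 3 genes of fructose 2,6-bisphosphate control were all lower in ROBO1pos. Their products are bifunctional enzymes that make and break fructose 2,6-bisphosphate, a strong activator of phosphofructokinase. PFKFB2, known as the heart form, was 1.89-fold lower, with 29.4, 31.6, 31.4, 28.0 and 30.7 CPM in ROBO1pos against 58.5, 58.8, 56.5, 51.3 and 60.2 CPM in ROBO1neg. Its groups lay far apart (log2 fold change -0.92, SE 0.05, edgeR adjusted p = 1.1e-09). PFKFB3, the form with the highest ratio of kinase to phosphatase activity, was at 27.5 ± 1.98 CPM in ROBO1pos and 34.2 ± 2.40 CPM in ROBO1neg. PFKFB4 was at 20.9 ± 1.80 CPM in ROBO1pos and 25.7 ± 1.31 CPM in ROBO1neg. The log2 fold changes were -0.32 for PFKFB3 and -0.30 for PFKFB4, and the log2 ratio of their counts averaged 0.40 in ROBO1pos and 0.41 in ROBO1neg (exact permutation test, p = 0.873).

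**Figure D2:**
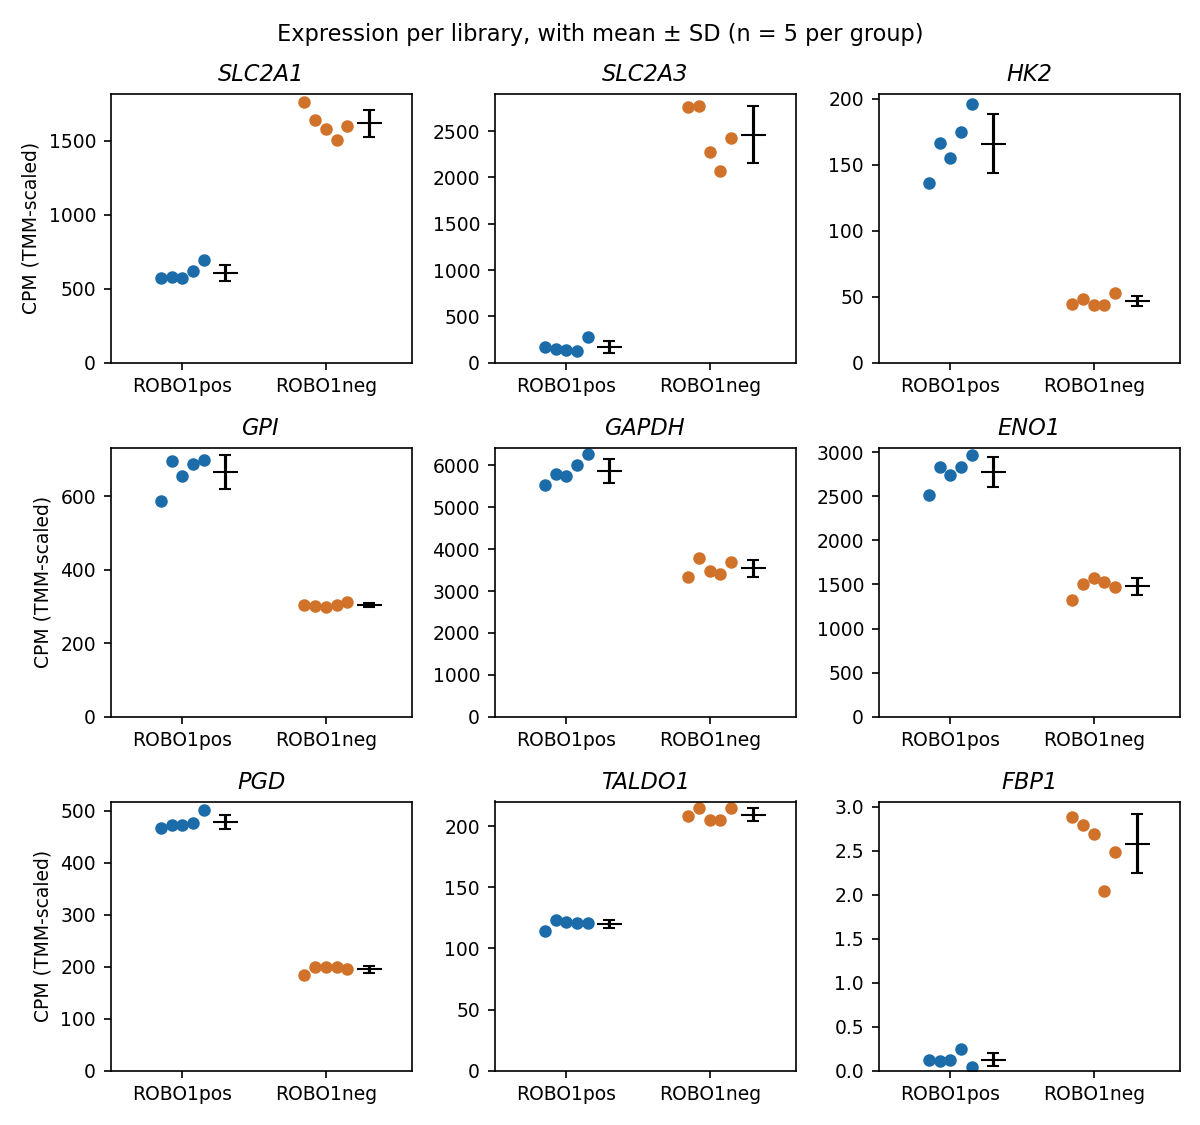
CPM in each library (linear axis) for SLC2A1, SLC2A3, HK2, GPI, GAPDH, ENO1, PGD, TALDO1 and FBP1. ROBO1pos is left and ROBO1neg right in each panel, with the group mean and SD beside the points. In none of the 9 genes did the libraries of the groups overlap; replicate 5 of ROBO1pos is the highest of its group for SLC2A3 at 279 CPM.

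Of the 7 genes of lower glycolysis, 6 were higher and 1 was lower in ROBO1pos. GAPDH, which oxidises glyceraldehyde 3-phosphate and makes NADH (chromosome 12 from 6533927 to 6538374, plus strand), had 5528, 5791, 5744, 6020 and 6279 CPM in ROBO1pos, against 3334, 3797, 3466, 3409 and 3699 CPM in ROBO1neg. The lowest ROBO1pos library was above the highest ROBO1neg library, and the log2 fold change was 0.73 (SE 0.05, edgeR adjusted p = 4.2e-09). GAPDH is often used to scale expression between samples, and here it was 1.66-fold higher in ROBO1pos. PGK1, which makes the first ATP of this stretch, was 1.30-fold higher, with 596, 682, 597, 624 and 669 CPM in ROBO1pos against 475, 514, 483, 475 and 494 CPM in ROBO1neg. PGAM1, the phosphoglycerate mutase, was the exception, with 36.7, 47.1, 37.1, 41.8 and 47.9 CPM in ROBO1pos against 65.2, 67.9, 73.1, 66.9 and 64.2 CPM in ROBO1neg. Its libraries did not overlap, and its log2 fold change was -0.68 (SE 0.07, edgeR adjusted p = 1.1e-06).

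The enolases convert 2-phosphoglycerate to phosphoenolpyruvate. ENO1, the widespread form (chromosome 1 from 8861000 to 8879250, minus strand), had 2515, 2835, 2739, 2838 and 2972 CPM in ROBO1pos, against 1326, 1506, 1573, 1523 and 1468 CPM in ROBO1neg. The log2 fold change was 0.91 (SE 0.05, edgeR adjusted p = 1.5e-09). No ROBO1pos library came near the ROBO1neg range. ENO2, the neuronal form, was at 124 ± 4.91 CPM in ROBO1pos and 112 ± 6.68 CPM in ROBO1neg with overlapping libraries (log2 fold change 0.15, edgeR adjusted p = 0.010). ENO3, the muscle form, was 1.92-fold higher at 37.0 ± 3.26 CPM in ROBO1pos and 19.3 ± 1.38 CPM in ROBO1neg (log2 fold change 0.94). ENO3 shares 111 exonic bases with PFN1 on the opposite strand, and with the strand setting of the counting not stated, reads of the overlap may not be separated. Over all libraries, without TMM scaling, PFN1 averaged 470.8 CPM and ENO3 28.2 CPM. The log2 ratio of ENO1 to ENO2 counts was 4.49 ± 0.13 in ROBO1pos and 3.73 ± 0.14 in ROBO1neg, a difference of 0.76 (exact permutation test, adjusted p = 0.0119).

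PKM, the pyruvate kinase that closes glycolysis, was 1.27-fold higher at 2072 ± 122 CPM in ROBO1pos and 1635 ± 61.7 CPM in ROBO1neg (log2 fold change 0.34, edgeR adjusted p = 9.7e-06). Gene counts do not separate its M1 and M2 splice forms. Both lactate dehydrogenase subunits were higher. LDHA, the subunit that favours lactate formation, had 951, 1167, 1025, 1030 and 1059 CPM in ROBO1pos, against 781, 877, 862, 833 and 831 CPM in ROBO1neg. LDHB, the subunit that favours pyruvate, had 1010, 1042, 997, 1039 and 1112 CPM in ROBO1pos, against 661, 750.0, 746, 784 and 732 CPM in ROBO1neg. Neither gene's groups overlapped. The log2 fold change was 0.32 for LDHA (SE 0.05, edgeR adjusted p = 5.7e-05) and 0.50 for LDHB (SE 0.05, edgeR adjusted p = 2.7e-07). Per kb of the principal transcript LDHB stood above LDHA in both groups, at 676 against 433 CPM per kb in ROBO1pos and 478 against 346 CPM per kb in ROBO1neg. The log2 ratio of LDHA to LDHB counts was 0.01 ± 0.10 in ROBO1pos and 0.19 ± 0.06 in ROBO1neg, a difference of -0.18 with overlapping libraries (exact permutation test, adjusted p = 0.0204).

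**Figure D3:**
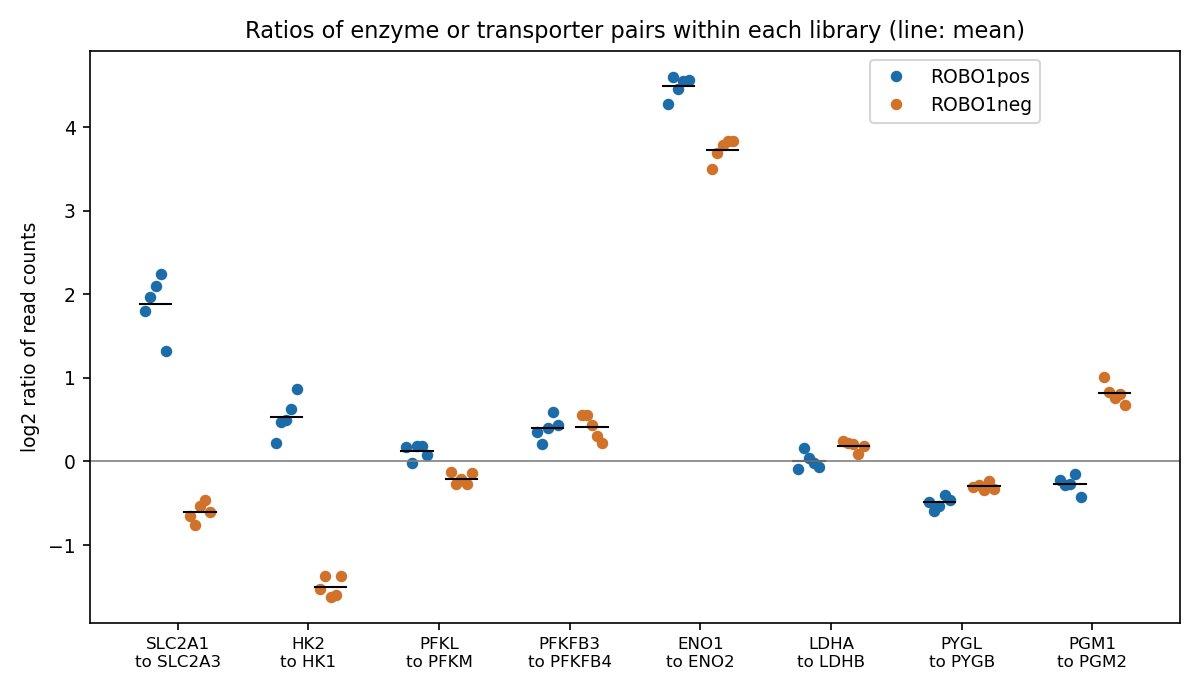
Log2 ratio of the read counts of isozymes within each library for 8 pairs, ROBO1pos left and ROBO1neg right in each pair, with group means as lines. SLC2A1 over SLC2A3 and HK2 over HK1 lie above 0 in all ROBO1pos libraries and below 0 in all ROBO1neg libraries, and PGM1 over PGM2 lies the other way round. The groups overlap for PFKFB3 over PFKFB4 and for LDHA over LDHB.

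Of the 7 glycogen genes, 3 were higher and 4 were lower, all by less than 1.5-fold, and none of their libraries overlapped between the groups. On the side of synthesis, GYS1, the muscle-type glycogen synthase, was at 80.9 ± 5.61 CPM in ROBO1pos and 60.2 ± 3.63 CPM in ROBO1neg (log2 fold change 0.43). GBE1, the branching enzyme, was at 50.5 ± 1.49 CPM in ROBO1pos and 35.0 ± 2.63 CPM in ROBO1neg (log2 fold change 0.53). UGP2, which makes the UDP-glucose that feeds glycogen synthase, was lower at 116 ± 4.46 CPM in ROBO1pos and 147 ± 4.87 CPM in ROBO1neg (log2 fold change -0.34). On the side of breakdown, both glycogen phosphorylases were lower. PYGL, the liver form, was at 109 ± 4.75 CPM in ROBO1pos and 149 ± 8.76 CPM in ROBO1neg (log2 fold change -0.46). PYGB, the brain form, was at 153 ± 5.81 CPM in ROBO1pos and 183 ± 12.2 CPM in ROBO1neg (log2 fold change -0.26). The log2 ratio of PYGL to PYGB counts differed by -0.19 (exact permutation test, adjusted p = 0.0119).

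The phosphoglucomutase genes went in opposite directions. PGM1, which links glycogen to glucose 6-phosphate, had 36.5, 39.9, 36.0, 40.3 and 37.4 CPM in ROBO1pos, against 57.9, 57.8, 55.9, 55.7 and 52.8 CPM in ROBO1neg. PGM2, which in human acts mainly on phosphopentoses, had 42.7, 48.3, 43.3, 44.7 and 50.1 CPM in ROBO1pos, against 28.7, 32.5, 32.9, 31.9 and 32.9 CPM in ROBO1neg. Each gene's groups were apart, and the log2 fold changes were -0.56 for PGM1 (SE 0.05, edgeR adjusted p = 5.0e-08) and 0.53 for PGM2 (SE 0.06, edgeR adjusted p = 1.0e-06). The ratio of PGM1 to PGM2 counts ran from 0.747 to 0.902 in ROBO1pos and from 1.602 to 2.019 in ROBO1neg, a log2 difference of -1.09 (exact permutation test, adjusted p = 0.0119).

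In the pentose phosphate pathway, PGD, the 6-phosphogluconate dehydrogenase that makes the second NADPH of the oxidative arm (chromosome 1 from 10398592 to 10420144, plus strand), had 467, 472, 472, 476 and 502 CPM in ROBO1pos, against 184, 200.2, 199, 199 and 195 CPM in ROBO1neg. Its groups were far apart and narrow, at 478 ± 13.8 CPM in ROBO1pos and 195 ± 6.69 CPM in ROBO1neg (log2 fold change 1.29 with an SE of 0.04, edgeR adjusted p = 1.3e-12). TALDO1, the transaldolase of the non-oxidative arm (chromosome 11 from 747329 to 765024, plus strand), had 114, 123, 121, 121 and 121 CPM in ROBO1pos, against 208, 215, 205, 205 and 215 CPM in ROBO1neg, with no overlap (log2 fold change -0.80, SE 0.04, edgeR adjusted p = 6.8e-11). TKT, the transketolase of the same arm, was at 363 ± 34.2 CPM in ROBO1pos and 493 ± 35.5 CPM in ROBO1neg (log2 fold change -0.44 with an SE of 0.07, edgeR adjusted p = 2.4e-05).

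The other genes of the pathway are given in the order of its steps. H6PD, which works in the oxidative arm inside the endoplasmic reticulum, was higher at 222 ± 28.1 CPM in ROBO1pos and 131 ± 14.6 CPM in ROBO1neg (log2 fold change 0.76). PGLS, the lactonase that acts before PGD, was higher at 61.5 ± 2.55 CPM in ROBO1pos and 42.0 ± 2.82 CPM in ROBO1neg (log2 fold change 0.55). In the non-oxidative arm, RPE, the epimerase, was lower (log2 fold change -0.48), and RPIA, the isomerase, was at 46.4 ± 3.85 CPM in ROBO1pos and 50.7 ± 2.42 CPM in ROBO1neg (log2 fold change -0.13, edgeR adjusted p = 0.056). RPIA was called lower with RLE scaling (adjusted p = 0.042), with no filter beyond 1 count (0.047), with DESeq2 (0.044), with the replicate number as a block (0.032), and without replicate 5 of ROBO1pos (0.010) or replicate 1 of ROBO1neg (0.039). SHPK, which makes sedoheptulose 7-phosphate, was 14.2 ± 1.16 CPM in ROBO1pos and 36.6 ± 1.32 CPM in ROBO1neg (log2 fold change -1.37). PRPS1, which makes phosphoribosyl pyrophosphate for nucleotides, was higher at 136 ± 4.65 CPM in ROBO1pos and 93.3 ± 3.97 CPM in ROBO1neg (log2 fold change 0.54), and PRPS2 had a log2 fold change of -0.09 (edgeR adjusted p = 0.19, and 0.018 without replicate 5 of ROBO1pos). Of the 11 tested genes in the list of other pentose phosphate genes, 3 were higher, 6 were lower and 2 were not called, with a median log2 fold change of -0.27 against 0.02 over all tested genes.

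**Figure D4:**
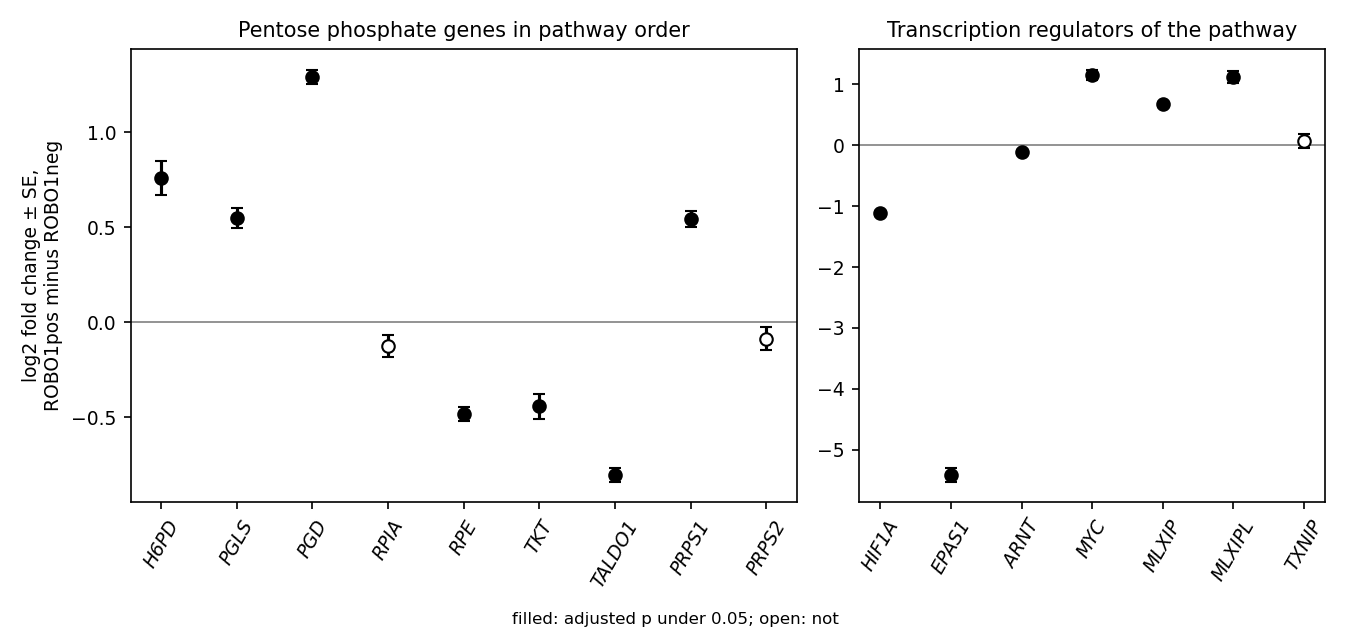
Log2 fold change (ROBO1pos over ROBO1neg) with the standard error for pentose phosphate genes and for upstream regulators of glucose metabolism, filled where the edgeR adjusted p is under 0.05 and open otherwise. PGD at 1.29 and TALDO1 at -0.80 lie on opposite sides of 0, and EPAS1 at -5.41 and MYC at 1.16 are the ends of the regulator panel.

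Both gluconeogenic genes of the set were lower in ROBO1pos. FBP1, the fructose 1,6-bisphosphatase that opposes phosphofructokinase (chromosome 9 from 94603133 to 94640249, minus strand), had 0.116, 0.111, 0.116, 0.242 and 0.0411 CPM in ROBO1pos, against 2.89, 2.80, 2.69, 2.05 and 2.49 CPM in ROBO1neg. The gene was near its counting limit in ROBO1pos, with 3, 3, 3, 6 and 1 counts per library, against 68, 65, 62, 60 and 69 counts in ROBO1neg. The log2 fold change was -4.31 (SE 0.26, edgeR adjusted p = 1.8e-09), and FBP1 was not tested with a filter of 5 CPM. FBP1 shares 283 exonic bases, 16.3% of its own, with PCAT7 on the opposite strand. Over all libraries, without TMM scaling, PCAT7 averaged 3.352 CPM and FBP1 1.345 CPM. As the strand setting of the counting is not stated, reads of the overlap may not be separated. PCK2, the mitochondrial phosphoenolpyruvate carboxykinase and a known target of the amino acid stress response, had 54.8, 39.6, 45.8, 56.2 and 61.8 CPM in ROBO1pos, against 67.5, 72.9, 54.9, 70.0 and 108 CPM in ROBO1neg. The groups overlapped through ROBO1pos replicates 4 and 5 and ROBO1neg replicate 3, and the log2 fold change was -0.54 (SE 0.16, edgeR adjusted p = 0.0064), or -0.37 without replicate 5 of ROBO1neg.

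Of 62 tested genes of the same pathways outside the set, 27 were higher, 27 were lower and 8 were not called (87.1% called, against 82.0% of all tested genes). Among other glycolysis and transport genes, 6 of 15 were higher and 7 lower. SLC2A13, a proton and myo-inositol transporter, was at 8.68 ± 1.11 CPM in ROBO1pos and 0.988 ± 0.269 CPM in ROBO1neg (log2 fold change 3.13). Lower were SLC2A10 (4.66 ± 1.31 CPM in ROBO1pos and 41.7 ± 2.18 CPM in ROBO1neg), SLC2A8 (7.51 ± 0.444 CPM in ROBO1pos against 14.1 ± 0.429 CPM in ROBO1neg) and SLC2A12 (5.54 ± 1.30 CPM in ROBO1pos against 11.3 ± 3.97 CPM in ROBO1neg), all further members of the GLUT family. BPGM, which makes 2,3-bisphosphoglycerate, was higher with a log2 fold change of 0.87, as was ADPGK, an ADP-dependent glucokinase, with 0.40.

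Among other glycogen genes, 14 of 23 were higher and 7 lower (91.3% called), with a median log2 fold change of 0.47, against 0.02 over all tested genes. GYG2, a glycogenin that primes glycogen, was at 2.11 ± 0.358 CPM in ROBO1pos and 32.7 ± 5.48 CPM in ROBO1neg (log2 fold change -3.95), and its paralog GYG1 was higher with a log2 fold change of 0.69. PPP1R3B and PPP1R3D, which target protein phosphatase 1 to glycogen, were lower (log2 fold changes -3.01 and -1.12). The related PPP1R3F (1.08) and the glycogen phosphatase laforin, EPM2A (1.32), were higher. In the list of other gluconeogenesis, fructose and galactose genes, 4 of 13 were higher and 7 lower. SORD, KHK and TKFC of fructose metabolism were higher, with log2 fold changes of 1.03, 0.64 and 0.62. GALT of galactose metabolism and GPD1L were lower, with -0.67 and -0.61.

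Upstream regulators of the pathway were taken from a list of 12 genes, all tested, of which 4 were higher, 6 lower and 2 not called (83.3% called, against 82.0% of all tested genes). HIF1A, the oxygen-regulated factor known to induce SLC2A1, HK2 and LDHA, was at 100.4 ± 4.34 CPM in ROBO1pos and 218 ± 9.20 CPM in ROBO1neg (log2 fold change -1.12). EPAS1, which encodes HIF-2α, was at 4.67 ± 0.552 CPM in ROBO1pos and 199 ± 28.2 CPM in ROBO1neg (log2 fold change -5.41). The HIF proteins are controlled mainly by their stability, which RNA does not measure. MYC, known to induce glycolytic genes, was higher at 563 ± 65.8 CPM in ROBO1pos and 253 ± 24.6 CPM in ROBO1neg (log2 fold change 1.16). MLXIPL, which encodes the glucose-sensing factor ChREBP, was at 47.1 ± 6.60 CPM in ROBO1pos and 21.6 ± 1.45 CPM in ROBO1neg (1.12), and FOXK1, a regulator of aerobic glycolysis, was higher (0.73). TXNIP, which restrains glucose uptake and responds to glucose, was at 227 ± 34.1 CPM in ROBO1pos and 216 ± 38.2 CPM in ROBO1neg (log2 fold change 0.07, edgeR adjusted p = 0.60).

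In a list of 20 known hypoxia-response genes outside the set, 3 of the 17 tested were higher, 9 lower and 5 not called (70.6% called, against 82.0% of all tested genes). The median log2 fold change was -0.56, against 0.02 over all tested genes. NDRG1 (12.6 ± 2.26 CPM in ROBO1pos and 92.9 ± 3.90 CPM in ROBO1neg), ADM (1.61 ± 0.348 CPM in ROBO1pos against 16.4 ± 1.27 CPM in ROBO1neg) and ANKRD37 (2.42 ± 0.402 CPM in ROBO1pos against 8.18 ± 1.08 CPM in ROBO1neg) were lower. PDK1, which restrains pyruvate dehydrogenase, was higher (log2 fold change 0.75), as was KDM3A (0.17). VEGFA, the angiogenic growth factor, had a log2 fold change of 0.41 (edgeR adjusted p = 0.03), and its call was lost when replicate 1, 4 or 5 of ROBO1pos or replicate 1, 2 or 3 of ROBO1neg was left out (adjusted p between 0.051 and 0.081). Of the set, SLC2A1 and SLC2A3 were lower, as were 9 of the 17 tested hypoxia-response genes. HK2, GAPDH, PGK1, ENO1 and LDHA were higher, as were 3 of the 17 (PDK1, KDM3A and VEGFA).

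Neighbouring genes moved with several of the 34. Over the 20 nearest tested genes on each side, the log2 fold change had a median of 0.75 around ENO1, 0.71 around PGD, 0.67 around PKM and 0.56 around GPI, and -0.69 around GBE1, -0.54 around PFKM and -0.53 around TKT. ENO1, PGD and H6PD lie near each other at the end of the short arm of chromosome 1. GAPDH, TPI1, ENO2 and SLC2A3 lie between 6533927 and 7936275 on chromosome 12, where SLC2A3 was far lower and the other 3 were higher. The neighbours' median was 0.10 around GAPDH, 0.35 around TPI1, 0.16 around ENO2 and 0.28 around SLC2A3. With the neighbours' median taken off, 27 of the 34 genes had the same direction and call, LDHA had the same direction but was no longer called (0.12, edgeR adjusted p = 0.057), and 6 turned direction. PKM turned to -0.34 and PFKM to 0.42, both called, and PGK1 (-0.04), ENO2 (-0.01), PFKFB4 (0.05) and TKT (0.08) turned without a call. GPI was then at 0.57, PGD at 0.58, ENO1 at 0.16, TPI1 at 0.20 and LDHB at 0.18, while GBE1 was at 1.22 and ENO3 at 1.26. SLC2A3 was at -4.13, SLC2A1 at -1.62, HK2 at 1.61, GAPDH at 0.63 and FBP1 at -3.77. Outside the set, RPIA was at -0.62 and called (edgeR adjusted p = 2.4e-07), H6PD was at 0.01 and not called, KHK (0.14), VEGFA (0.27) and KRT18 (-0.05) lost their calls, and ADPGK (-0.16), PGLS (-0.03), GPD1L (0.04), KDM3A (-0.16) and KRT8 (0.05) turned direction. The part of position in these differences was not tested, and no DNA copy number was analysed here.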

How the data were processed

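Polyadenylated RNA of 10 libraries was made with a stranded kit, per the labels' protocols. The values deposited for each library are raw read counts per gene, whole numbers without any scaling by the authors. The submitters' processing notes name STAR 2.6.0c, SAMtools 1.9, bcl2fastq, FastQC, DESeq2 1.24.0 and GRCh38. The sources used here do not name the counting tool, its strand setting or the annotation. Entries that name no gene were left out: reads with no feature (15.8% of listed reads for ROBO1pos, 14.6% for ROBO1neg), ambiguous reads (0.860% for ROBO1pos, 0.833% for ROBO1neg) and multiply aligned reads (24.6% for ROBO1pos, 21.2% for ROBO1neg).

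Counts were fitted with edgeR 4.0.16 in R 4.3.3 over all 14932 genes kept by filterByExpr, with TMM scaling, a quasi-likelihood test of group, Benjamini-Hochberg adjustment over all tested genes and a threshold of 0.05. Standard errors came from the coefficient and its F statistic. CPM were computed over each library's total on the tested genes, multiplied by its TMM factor. Isozyme ratios are log2 ratios of counts plus 0.5, tested by exact permutation (two-sided) with adjustment over 9 pairs. No libraries of a group were duplicates, as their counts differed by 3.55 to 21.9 times the sampling variance. Gene positions, lengths and overlaps came from GENCODE release 29 and promoters from RefSeq (GRCh38.p14). Neighbours were ordered through a RefSeq gene table, in which 13665 tested genes matched by symbol, 942 matched by an older name and 325 had no match.

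Named genes were the 34 genes, ROBO1 and, of each other list, up to 3 called genes per direction with the largest change and at least 5 CPM in the higher group. PFKP, RPIA, PRPS2, TXNIP and 5 markers of other cell types were named outside this rule after their values were seen, and a few genes picked by the rule are left unreported. The members and lists were chosen with earlier results of these data known. The alternatives were DESeq2 1.42.0, RLE scaling, library size alone, all genes with 1 count or more, genes of 5 CPM in at least 5 libraries, edgeR's test against 1.5-fold, a replicate block, removal of the median of 40 neighbours, 5 counts added to isozyme ratios, and each library left out in turn.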

Additional observations from a re-analysis of the deposited data

Results flagged for a closer look

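In 4 cases a single library stood apart from the other 4 of its group for 1 of the 34 genes, by Dixon's ratio of the gap to the range (critical value 0.71). SLC2A3 was at 279 CPM in replicate 5 of ROBO1pos, and the next highest of its group was at 164 CPM (ratio 0.777). PGD was at 502 CPM in the same library, with 476 CPM next (ratio 0.746). UGP2 was at 124 CPM in replicate 2 of ROBO1pos, with 115 CPM next (ratio 0.750). PGM2 was at 28.7 CPM in replicate 1 of ROBO1neg, with 31.9 CPM next (ratio 0.757). With 68 gene and group combinations examined, chance alone gives about 3.4 such cases. In each of these genes the ROBO1pos and ROBO1neg ranges were apart, and the call held when that library was left out.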

How the results depend on the processing

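All 34 genes were called, 17 in each direction, with RLE scaling, no filter beyond 1 count, DESeq2 and the replicate block; 33 of 33 were called with the 5 CPM filter, 33 with library size only, and 32 to 34 when each library was left out. Tested against a fold of 1.5, 11 of the 34 genes were called (6 higher, 5 lower), as were 21 of the other pathway genes (8 higher, 13 lower), 1 higher hypoxia-response gene and 6 upstream regulators (3 of them lower); over all genes 6236 were called (2938 higher, 3298 lower) in place of 12250. With the median of 40 neighbours removed, PFKM (0.42), PFKFB4 (0.050), PGK1 (-0.042), ENO2 (-0.012), PKM (-0.34), TKT (0.079), ADPGK (-0.16), PGLS (-0.029), GPD1L (0.036), KDM3A (-0.16) and KRT8 (0.051) turned direction; the cause was not tested. The replicate numbers did not meet the rule for pairing, as same-numbered libraries correlated between 0.062 and 0.169 across groups. Even so, every ROBO1pos library correlated best with the ROBO1neg library of its own number. With the block the calls of the 34 genes held, and RPIA was called (adjusted p = 0.032). For the isozyme ratios a paired exact sign-flip permutation test cannot go below p = 0.0625, so the block's adjusted p was 0.080 for the differences of 2.49, 2.03, 0.32, 0.76, -0.18, -0.19 and -1.09 and 0.141 for -0.44 (ALDOA to ALDOC). Leaving out a library gave log2 ratio differences from -0.54 to -0.35 for ALDOA to ALDOC, which lost its call without each ROBO1neg replicate, and from -0.064 to 0.032 for PFKFB3 to PFKFB4. TXNIP, not called, ran from -0.031 to 0.14. Depth limits FBP1, with 16 counts in all of ROBO1pos.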
